A study of Mus musculus with 24 samples.

Results

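The genes described are the translation initiation factors and the eIF2 kinases of the mouse, taken as every gene whose symbol begins with Eif and a digit from 1 to 6. Of 63 such genes, 7 named as pseudogenes were left out, and 3 of the remaining 56 did not reach 1 TPM (a relative transcript abundance corrected for transcript length) in at least 4 libraries. The other 53 are described here, out of 47729 genes in all and 15736 that passed the same level. The 3 below it were Eif2s3y, a Y-linked eIF2γ gene listed at 0 in every library, Eif4e1b, an eIF4E-like gene at 0.04 to 1.47 TPM, and Eif2c5, which the annotation gives as a long non-coding RNA.

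RNA-seq was done on 24 libraries of transplanted mammary tumours. Tumours that arose in MMTV-Wnt1 transgenic mice, in which Wnt1, a growth factor gene, is under the promoter of mouse mammary tumour virus and so active in mammary epithelium, were cut up and grown in C57BL/6J hosts to about 200 mm3, a size set as day 1. Hosts then received vehicle, 25 mg/kg or 50 mg/kg of E7386 by mouth, the drug 2 times daily, for 3 days (collected on day 4) or 7 days (collected on day 8). E7386 is known as a modulator of the interaction between β-catenin and its coactivator CBP. Each of the 6 groups had 4 libraries, and all groups carry the Wnt1 transgene in the tumour. The labels do not say how many donor tumours were used, nor whether each library is from an animal of its own. The spread behind the p-values is therefore that of the libraries, and some of it may be technical.

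In the first step of translation, the eIF2 complex brings the initiator tRNA to the small ribosomal subunit, where eIF1, eIF1A, eIF3 and eIF5 help it to find and check the start codon. The eIF4F complex, made of the cap-binding eIF4E, the scaffold eIF4G and the RNA helicase eIF4A, recruits the mRNA, and the 4E-BP proteins block it by holding eIF4E unless the mTORC1 kinase phosphorylates them. When one of the eIF2 kinases phosphorylates eIF2α, the exchange factor eIF2B is inhibited and general initiation falls, while the mRNA of the transcription factor ATF4 is translated more. ATF4 binds composite C/EBP-ATF elements in genes such as Asns, and this set of events is called the integrated stress response. RNA levels measure neither the phosphorylation nor the translation in these steps.

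The promoters of Eif1, Eif2s2 and Eif3c are shown, and that of Eif4ebp1 is not shown here. Among members with an adjusted p under 0.05 on day 4, these 3 had the largest rises at 50 mg/kg after Eif4ebp1. The promoter of Asns stands beside them because its C/EBP-ATF element is a known target of ATF4. They are the 250 bases upstream of the RefSeq start on GRCm38.p6, written 5′ to 3′ on the gene's strand. Capitals mark matches on either strand to TGATGNAA (C/EBP-ATF composite element) or to TGACG (core of the ATF/CREB site), read on the other strand as its reverse complement. The windows are chr11:100319699-100319948 (plus strand) for Eif1, chr2:154892907-154893156 (minus strand) for Eif2s2, chr7:126566367-126566616 (minus strand) for Eif3c and chr6:7693210-7693459 (minus strand) for Asns.
Eif1: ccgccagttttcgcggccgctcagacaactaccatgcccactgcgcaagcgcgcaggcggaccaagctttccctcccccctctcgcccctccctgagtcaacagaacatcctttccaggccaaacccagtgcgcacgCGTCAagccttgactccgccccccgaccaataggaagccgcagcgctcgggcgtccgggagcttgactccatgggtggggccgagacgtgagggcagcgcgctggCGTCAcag
Eif2s2: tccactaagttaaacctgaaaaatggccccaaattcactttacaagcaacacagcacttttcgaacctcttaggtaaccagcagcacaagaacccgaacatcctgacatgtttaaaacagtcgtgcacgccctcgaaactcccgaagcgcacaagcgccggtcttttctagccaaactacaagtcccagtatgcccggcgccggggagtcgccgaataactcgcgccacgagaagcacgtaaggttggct
Eif3c: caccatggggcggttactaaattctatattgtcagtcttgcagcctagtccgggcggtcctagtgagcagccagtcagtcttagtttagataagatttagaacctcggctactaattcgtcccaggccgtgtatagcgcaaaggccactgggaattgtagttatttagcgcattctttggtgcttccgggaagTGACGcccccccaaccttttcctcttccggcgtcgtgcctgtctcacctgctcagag
Asns: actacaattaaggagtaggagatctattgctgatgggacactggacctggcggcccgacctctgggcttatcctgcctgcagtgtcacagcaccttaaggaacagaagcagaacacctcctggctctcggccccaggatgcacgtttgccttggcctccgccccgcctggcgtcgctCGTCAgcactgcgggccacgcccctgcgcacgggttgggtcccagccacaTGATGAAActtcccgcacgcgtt
The Asns window held the composite element at 23 to 16 bases before the start and 1 core match. The Eif1 window held 2 core matches and no composite element, the Eif3c window 1 core match, and the Eif2s2 window neither. Of the 53 members 42 had a promoter in the RefSeq table. Of those 42, 21 held the core, which is in 17.8% of all 32851 promoters of the table, and 1, Eif2s3x, held the composite element, which is in 3.45%. A member was counted if any promoter listed for it matched, while the shares are of single promoters. The counts and the shares are therefore unlike measures. A match is a string of letters and not a bound site.

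The deposited values carry no read depth, so no counting error can be given. In each library 14496 to 15127 genes reached 1 TPM, mitochondrially encoded genes took 8.29% to 11.3% of the total, and the 53 members took 0.912% to 1.08%. Markers of mammary epithelium (Epcam, Cdh1 and 5 keratin genes) summed to 2602 to 5593 TPM per library, all 7 above 0. Groups were compared with limma on log2(TPM + 1), with p-values adjusted over all genes tested and a threshold of 0.05. Fold changes in log2 are on that scale with their standard error (SE), and other levels are in TPM. In tumour tissue, fewer cells of a type and less RNA per cell cannot be told apart.

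After 3 days at 50 mg/kg, a few initiation factor genes rose while the median change of the family lay near 0. Eif4ebp1 rose 3.58-fold in mean TPM, Eif1 1.65-fold, Eif2s2 1.64-fold and Eif3c 1.31-fold, and Eif6, Eif5 and Eif3a rose by less. Eif4a3, Eif3g, Eif4a1 and Eif5a2 fell. In all, 11 of the 53 members passed, 7 higher and 4 lower, which is 20.8% beside 9.26% of all genes. Of all genes 4.95% were called higher and 4.31% lower. This split changed with the scaling, from 779 higher of 1457 calls to 671 of 1432 with TMM factors and 656 of 1529 with quantile normalization. The share over all genes fell to 5.52%, 4.96% and 5.6% without vehicle replicate 1, 3 or 4 and to 4.44% without 50 mg/kg replicate 3. With a filter of 5 TPM, which most members reach, that share was 12.5%. The median log2 fold change was -0.01 over the members and 0.03 over all genes. The 42 members that did not pass lay between -0.43 and 0.49 in log2.

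**Figure D1:**
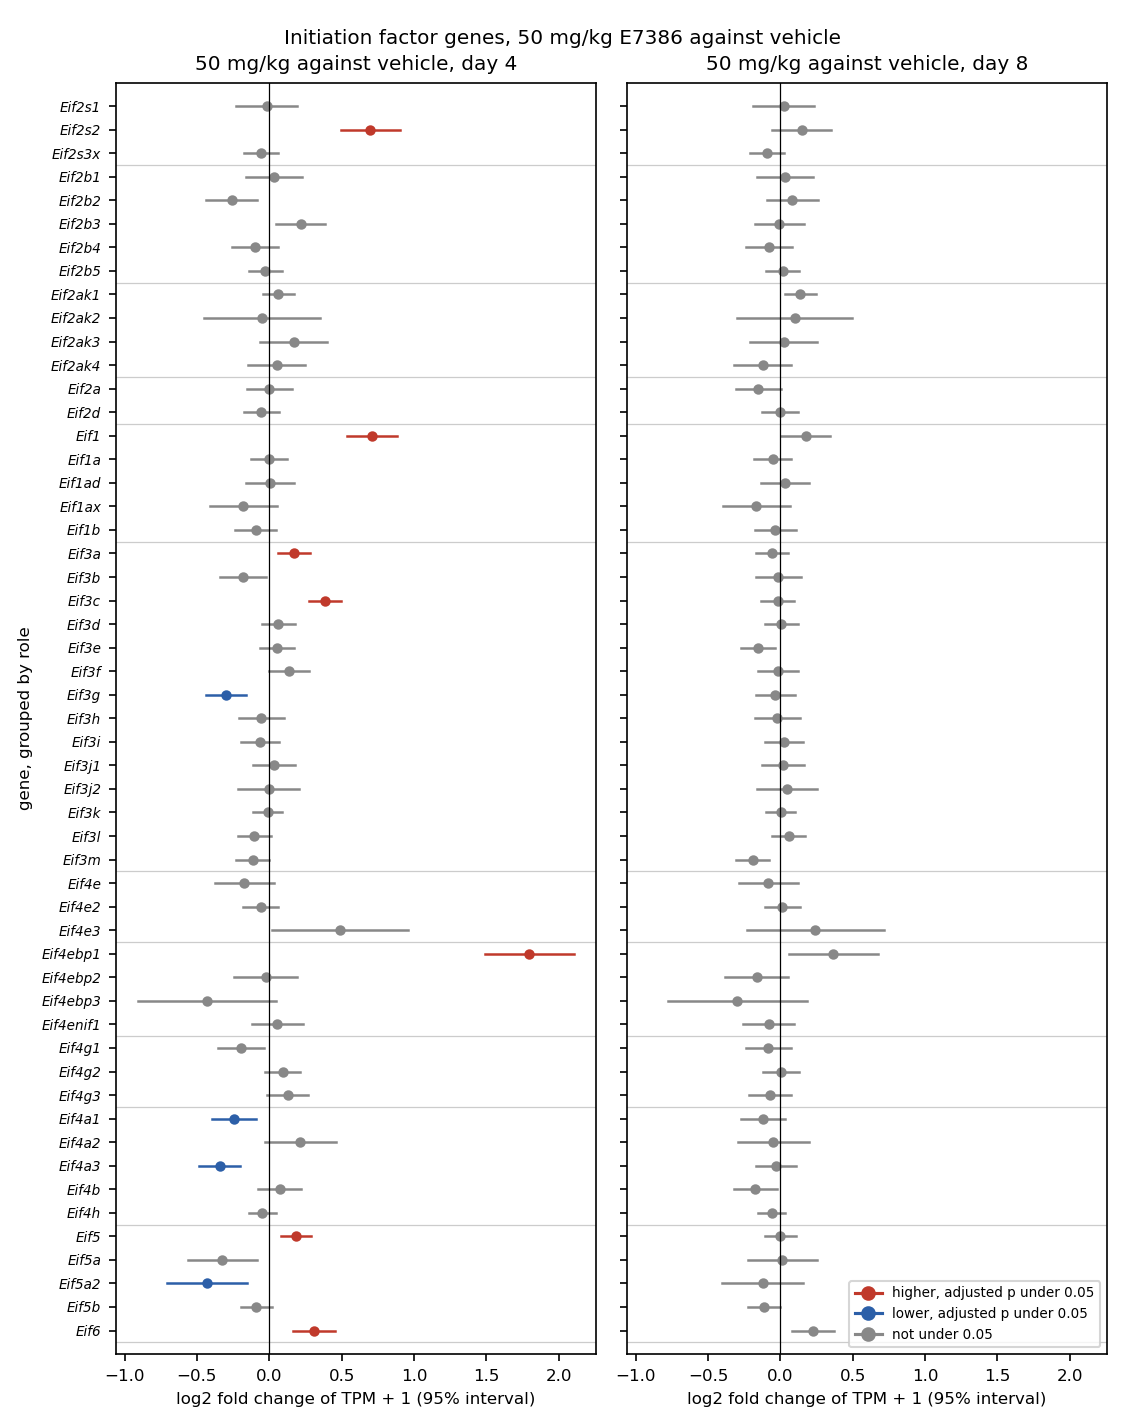
Log2 fold change of TPM + 1 (horizontal axis) for each of the 53 genes (vertical axis, grouped by role), 50 mg/kg of E7386 against vehicle on day 4 (left) and day 8 (right), with 4 libraries per group. Points are estimates, lines are 95% intervals, and colours mark genes with an adjusted p under 0.05 that were higher (red) or lower (blue). On day 4 Eif4ebp1 stands at 1.80, and on day 8 no gene is coloured.

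The eIF2 complex, whose α, β and γ subunits are encoded by Eif2s1, Eif2s2 and Eif2s3x, did not change as a unit. Eif2s2 (2:154871410-154892935, minus strand) had 135, 127, 138 and 133 TPM in the vehicle libraries of day 4 and 210.0, 182, 218 and 265 TPM at 50 mg/kg. The lowest treated library was above the highest vehicle library. The rise was 0.70 in log2 (SE 0.10, limma adjusted p = 0.000109). Eif2s1, the subunit that the kinases phosphorylate, had 64.7, 55.5, 60.3 and 60.3 TPM with vehicle and 55.6, 55.4, 59.2 and 67.8 TPM at 50 mg/kg. Eif2s3x, the subunit that binds GTP and the initiator tRNA, had 188, 185, 198 and 191 TPM with vehicle and 178, 180.3, 185 and 189.5 TPM at 50 mg/kg. Both overlapped between the groups and did not pass, with log2 fold changes of -0.02 (95% interval -0.23 to 0.19) for Eif2s1 and -0.06 (-0.18 to 0.06) for Eif2s3x. Within a library, the ratio of Eif2s2 to Eif2s1 was 2.09 to 2.30 with vehicle and 3.28 to 3.91 at 50 mg/kg.

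None of the 5 genes of eIF2B, the GDP-GTP exchange factor of eIF2, passed on day 4. The nearest were Eif2b2 (β subunit, -0.26 in log2, limma adjusted p = 0.0565) and Eif2b3 (γ subunit, 0.22, limma adjusted p = 0.0955). Eif2b2 did pass with quantile normalization (limma adjusted p = 0.0421), with a filter of 5 TPM (limma adjusted p = 0.0492) and without vehicle replicate 2 (limma adjusted p = 0.0318). Eif2b4 overlaps Snx17 on the opposite strand, and since it is not given whether the counting used the strand, its values are uncertain. Eif2a and Eif2d, which can bring initiator tRNA without eIF2, lay at 0.00 and -0.05 in log2 and are uncertain for the same reason, with Serp1 and Rassf5 as partners.

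The 4 kinases of eIF2α, known to respond to haem or mitochondrial stress (Eif2ak1, HRI), double-stranded RNA (Eif2ak2, PKR), unfolded protein in the endoplasmic reticulum (Eif2ak3, PERK) and lack of amino acids (Eif2ak4, GCN2), were all expressed. Their means over all libraries were 24.2, 13.3, 17.2 and 9.79 TPM in that order. On day 4 Eif2ak1 had 23.1, 22.8, 23.9 and 23.1 TPM with vehicle and 25.2, 24.7, 24.2 and 23.3 TPM at 50 mg/kg, and the groups overlapped. Eif2ak2 had 13.2, 12.2, 13.4 and 12.3 TPM with vehicle and 13.4, 14.5, 11.9 and 9.85 TPM at 50 mg/kg.
Eif2ak3 had 14.4, 16.2, 14.8 and 18.6 TPM with vehicle and 19.0, 17.5, 19.97 and 15.9 TPM at 50 mg/kg, again with overlap. Eif2ak4 had 9.67, 9.74, 9.95 and 10.5 TPM with vehicle and 9.96, 12.2, 9.70 and 9.75 TPM at 50 mg/kg. None of the 4 passed, and the smallest limma adjusted p was 0.351, for Eif2ak3. The 95% intervals of the log2 fold change reached from -0.04 to 0.17 for Eif2ak1, -0.45 to 0.35 for Eif2ak2, -0.06 to 0.40 for Eif2ak3 and -0.15 to 0.25 for Eif2ak4. Eif2ak1 overlaps Aimp2 on the opposite strand, which at 79.1 TPM is more abundant, so its values are uncertain.

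**Figure D2:**
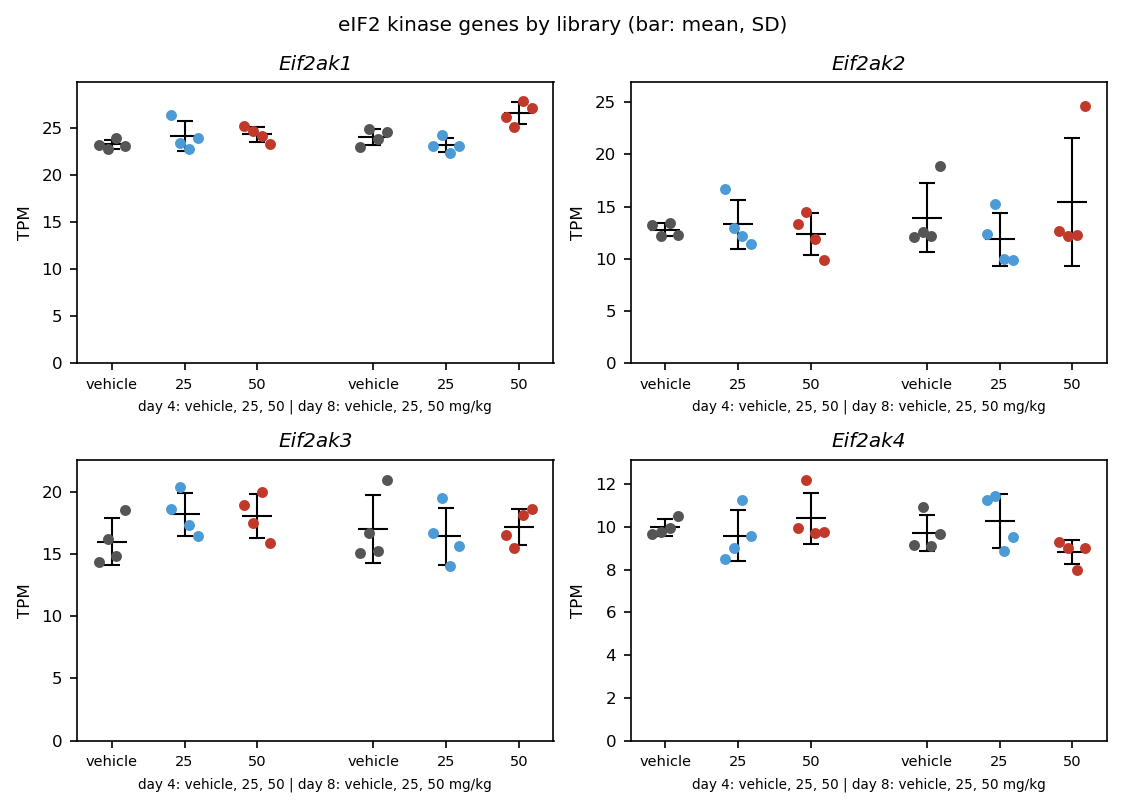
TPM (vertical axes, from 0) of the 4 eIF2 kinase genes in each of the 24 libraries, by day and by dose in mg/kg. Points are libraries and bars are the mean and SD of 4. The groups overlap on day 4, Eif2ak1 at 50 mg/kg on day 8 (25.1 to 27.9 TPM) lies above vehicle, and Eif2ak2 has 1 high library in vehicle (18.9 TPM) and 1 at 50 mg/kg (24.6 TPM) on day 8.

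Eif1, which keeps the ribosome open until the start codon is found, was among the members that changed most. It lies at 11:100319885-100322096 on the plus strand. It had 314, 317, 288 and 301 TPM with vehicle and 579, 419, 465 and 548 TPM at 50 mg/kg on day 4, with no overlap. The rise was 0.71 in log2 (SE 0.08, limma adjusted p = 1.03e-05). The other 4 genes of this class did not pass and lay between -0.18 (Eif1ax, an eIF1A gene) and 0.00 (Eif1ad) in log2. Eif1ad, at a mean of 21.5 TPM, overlaps Banf1 at 222 TPM on the opposite strand and is uncertain. The close relative Eif1b had 38.6 ± 2.42 TPM with vehicle and 36.1 ± 1.2 TPM at 50 mg/kg (SD, n = 4).

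The eIF3 complex, the large scaffold on the small ribosomal subunit, was represented by 14 genes, of which 2 rose, 1 fell and 11 did not pass. Eif3c (7:126546455-126566411, minus strand), a core subunit, had 147, 145, 167 and 151 TPM with vehicle and 200.1, 187, 199.6 and 208 TPM at 50 mg/kg on day 4. All 4 treated libraries were above the vehicle ones, a rise of 0.38 in log2 (SE 0.05, limma adjusted p = 0.000104). Eif3a, the largest subunit and a partner of Eif3c in the core, had 193, 183, 203 and 212 TPM with vehicle and 201, 226, 229 and 236 TPM at 50 mg/kg. The groups overlapped, and the rise of 0.17 in log2 (SE 0.05, limma adjusted p = 0.0445) lay just inside the threshold. Eif3g, an RNA-binding subunit, had 279.7, 242, 242 and 259 TPM with vehicle and 206, 196, 212 and 217 TPM at 50 mg/kg. These groups did not overlap, and Eif3g fell by 0.30 in log2 (SE 0.07, limma adjusted p = 0.00786). Eif3b, another core subunit, was lower without overlap but did not pass (-0.18, limma adjusted p = 0.137). The ratio of Eif3c to Eif3b within a library was 0.519 to 0.561 with vehicle and 0.762 to 0.841 at 50 mg/kg. Eif3j1 and Eif3j2 are near-identical copies between which reads can be split, so each is uncertain. Eif3j1 and Eif3m also overlap genes on the opposite strand.

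The largest change in the family was in a repressor of eIF4E. Eif4ebp1, which encodes 4E-BP1 and lies at 8:27260329-27276674 on the plus strand, had 63.7, 56.7, 50.8 and 53.1 TPM with vehicle and 223, 141, 196 and 244 TPM at 50 mg/kg on day 4. The lowest treated library was above 2 times the highest vehicle library. The rise was 1.80 in log2 (SE 0.15, limma adjusted p = 1.07e-07).
Eif4ebp2, which encodes the related 4E-BP2, had 159.5, 157, 152 and 161 TPM with vehicle and 131, 189.7, 168 and 136 TPM at 50 mg/kg, with overlap and a log2 fold change of -0.02 (95% interval -0.24 to 0.19). Eif4ebp3, the scarcest of these genes, had 1.36, 2.5, 1.37 and 1.24 TPM with vehicle and 0.83, 0.67, 1.09 and 1.08 TPM at 50 mg/kg. It did not overlap and did not pass (-0.43, limma adjusted p = 0.245). Eif4ebp1 took 24.7% to 28.3% of the summed TPM of the 3 genes with vehicle and 42.5% to 63.9% at 50 mg/kg.

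Eif4e itself, the cap-binding protein, had 92.0, 80.5, 89.1 and 84.0 TPM with vehicle and 84.8, 64.9, 73.4 and 84.7 TPM at 50 mg/kg on day 4, with overlap and no call (-0.17, limma adjusted p = 0.277). The sum of the 3 4E-BP genes was 2.29 to 2.68 times the level of Eif4e with vehicle, 2.72 to 3.61 times at 25 mg/kg and 4.19 to 5.10 times at 50 mg/kg. Eif4e2 and Eif4e3, related cap-binding proteins, did not pass, with -0.06 and 0.49 in log2. Neither did Eif4enif1, which encodes the eIF4E transporter 4E-T and overlaps Drg1 on the opposite strand (0.05 in log2).

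**Figure D3:**
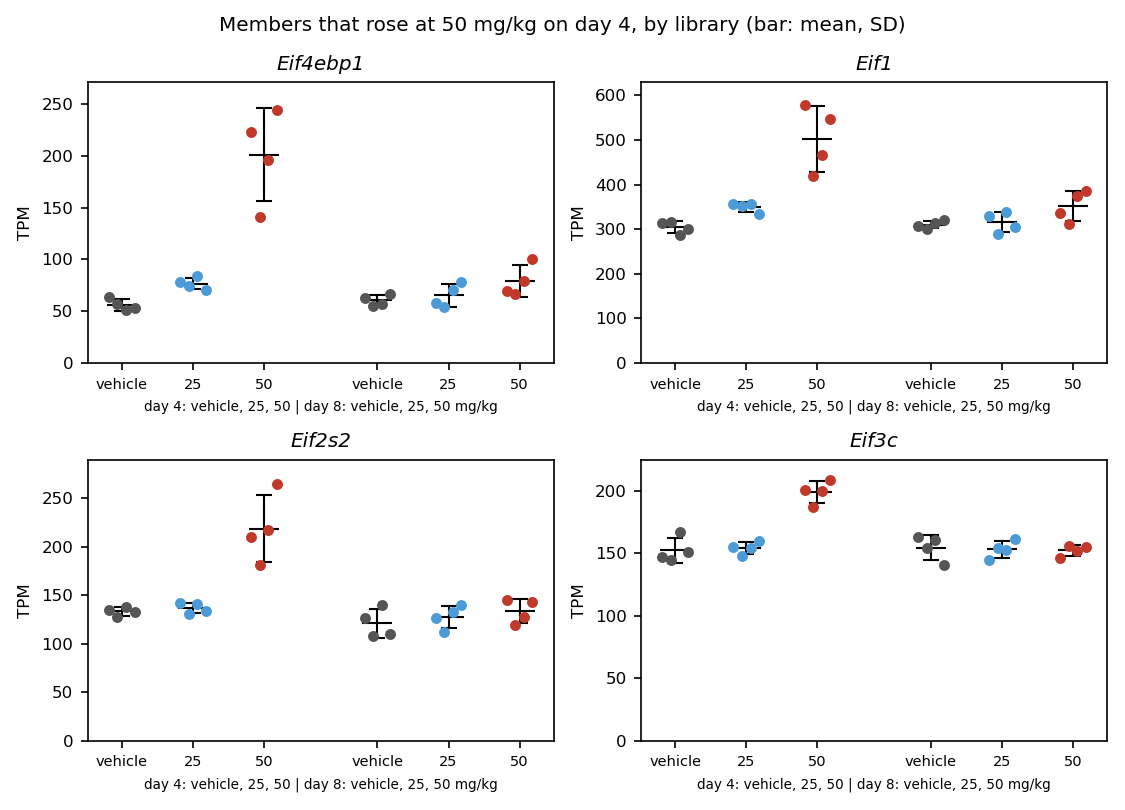
TPM (vertical axes, from 0) of Eif4ebp1, Eif1, Eif2s2 and Eif3c in each of the 24 libraries, by day and by dose in mg/kg. Points are libraries and bars are the mean and SD of 4. The 50 mg/kg libraries of day 4 lie above all others in each panel, from 141 to 244 TPM for Eif4ebp1, and those of day 8 are lower.

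**Figure D4:**
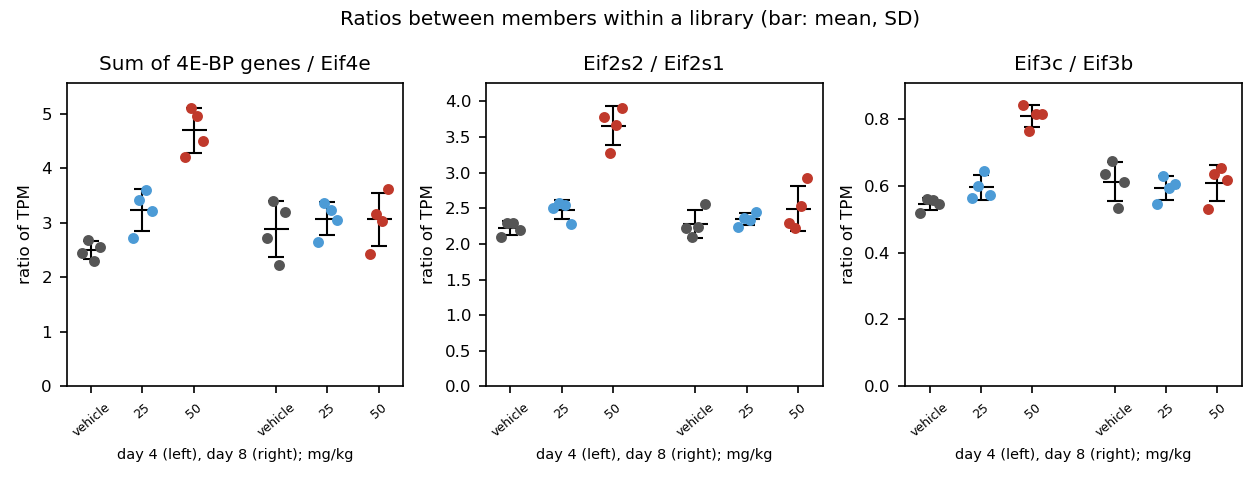
Ratios of TPM within each library (vertical axes, from 0) for the sum of the 3 4E-BP genes over Eif4e, Eif2s2 over Eif2s1 and Eif3c over Eif3b, by day and by dose in mg/kg. Points are libraries and bars are the mean and SD of 4. On day 4 the 50 mg/kg libraries are above the others (4.19 to 5.10, 3.28 to 3.91 and 0.762 to 0.841), and on day 8 the groups overlap.

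Of the 3 eIF4G genes, Eif4g1, the main scaffold, was nearest to the threshold (-0.20 in log2, limma adjusted p = 0.106), while Eif4g2 (also called DAP5) and Eif4g3 lay at 0.09 and 0.13. Eif4g1 did pass after a correction for the trend with transcript length (limma adjusted p = 0.049). Among the helicase genes, Eif4a3 (11:119288363-119300089, minus strand), which encodes a subunit of the exon junction complex more than an initiation factor, had 128, 121, 126 and 127 TPM with vehicle and 103, 94.3, 99.8 and 98.4 TPM at 50 mg/kg. The groups did not overlap, and Eif4a3 fell by 0.34 in log2 (SE 0.07, limma adjusted p = 0.00331). Eif4a1, the abundant helicase of eIF4F, had 900.2, 872, 942 and 894 TPM with vehicle and 797, 711, 733 and 801 TPM at 50 mg/kg, a fall of 0.25 in log2 without overlap (SE 0.07, limma adjusted p = 0.0378). Its processed copy Eif4a-ps4, at a mean of 94.2 TPM, fell by 0.27 (limma adjusted p = 0.00837), and reads of the gene and the copy may be exchanged, so the size for Eif4a1 is uncertain. Eif4a2, its paralogue, lay the other way without a call (0.22 in log2, limma adjusted p = 0.258), and it overlaps snoRNA genes and Rfc4. The helicase cofactors Eif4b and Eif4h lay at 0.07 and -0.05.

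Among the late factors, Eif6, which keeps the large ribosomal subunit from joining too early and takes part in its assembly, had 60.8, 62.4, 63.8 and 59.8 TPM with vehicle and 78.8, 69.2, 77.0 and 81.5 TPM at 50 mg/kg on day 4. All treated libraries were above all vehicle libraries, a rise of 0.31 in log2 (SE 0.07, limma adjusted p = 0.00932). Eif5, which triggers GTP hydrolysis by eIF2, had 174, 183, 176 and 175 TPM with vehicle and 192, 197, 205 and 212 TPM at 50 mg/kg. Eif5 did not overlap either and rose by 0.19 (SE 0.05, limma adjusted p = 0.0266). Eif5a2, a scarce paralogue of the elongation and termination factor Eif5a, had 2.61, 2.92, 3.06 and 2.88 TPM with vehicle and 2.41, 1.74, 1.48 and 1.91 TPM at 50 mg/kg, a fall of 0.43 (SE 0.13, limma adjusted p = 0.0467). Eif5a itself had 1319.8 ± 70.4 TPM with vehicle and 1057 ± 107 TPM at 50 mg/kg (SD, n = 4) and did not pass (-0.32, limma adjusted p = 0.0784). Its groups did not overlap. Eif5a did pass in the fit of the compared groups only (limma adjusted p = 0.0363) and with library weights (limma adjusted p = 0.0081), which called 20.4% of all genes. Eif5b, the GTPase that joins the subunits, lay at -0.09.

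Counted by overlap alone, 8 members were higher and 8 lower in all 4 treated than in all 4 vehicle libraries of day 4, which is 15.1% each beside 10.4% and 7.98% of all genes. Of these, 6 of the higher and 4 of the lower ones passed the test. Under other scalings, filters and fits and with libraries left out, the calls of Eif4ebp1, Eif1, Eif2s2, Eif3c, Eif6, Eif4a3 and Eif3g held in all 19 alternatives. Those of Eif3a were lost in 12 of 19 (largest limma adjusted p = 0.261), of Eif4a1 in 8 of 19 (0.107), of Eif5 in 8 of 19 (0.112) and of Eif5a2 in 9 of 18 (0.150). These 4 calls are near the threshold.

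At 25 mg/kg on day 4 no gene of the table passed (0% of all genes), and so no member. At an unadjusted p under 0.05 there were 3 members and 724 genes in limma. Eif4ebp1 had 78.0, 74.2, 83.8 and 70.8 TPM, all above the vehicle libraries and all below those of 50 mg/kg (0.45 in log2 against vehicle, SE 0.15, unadjusted p = 0.00673, limma adjusted p = 0.914). Eif1 had 357, 351, 356 and 335 TPM and was placed in the same way (0.20, SE 0.08, unadjusted p = 0.0250, limma adjusted p = 0.914). Eif4a3 had 110.4, 113, 109 and 114 TPM, below vehicle and above 50 mg/kg (-0.17, SE 0.07, unadjusted p = 0.0200, limma adjusted p = 0.914). For Eif2s2, by contrast, the 25 mg/kg libraries at 142, 131, 141 and 134 TPM overlapped those of vehicle, and Eif3c, at 155, 147, 154 and 159.8 TPM, did so too. By overlap alone 2 members were higher and 5 lower at 25 mg/kg than with vehicle (3.77% and 9.43%, beside 3.06% and 2.48% of all genes).

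Between the doses on day 4, 5 of 53 members were higher at 50 than at 25 mg/kg and none lower (9.43%, beside 2.15% of all genes, 1.15% higher and 1% lower). They were Eif4ebp1 (1.35 in log2, SE 0.15, limma adjusted p = 7.86e-06), Eif2s2 (0.66, SE 0.10, limma adjusted p = 0.000344), Eif1 (0.51, SE 0.08, limma adjusted p = 0.000833), Eif3c (0.37, SE 0.05, limma adjusted p = 0.000293) and Eif6 (0.31, SE 0.07, limma adjusted p = 0.0177). For each of the 5 the 50 mg/kg libraries were all above the 25 mg/kg ones. By overlap alone 8 members were higher and 5 lower at 50 mg/kg (15.1% and 9.43%, beside 5.42% and 4.47% of all genes). Eif2b3 lay just outside (0.29, limma adjusted p = 0.0605) and passed with a filter of 5 TPM (limma adjusted p = 0.0473) and without 25 mg/kg replicate 1 (limma adjusted p = 0.0310). Eif3a passed without 50 mg/kg replicate 1 (limma adjusted p = 0.0361). The call of Eif6 was lost in 4 of 19 alternatives (largest limma adjusted p = 0.0689), those without 25 mg/kg replicate 3 or without 50 mg/kg replicate 1, 3 or 4. This comparison uses the same 50 mg/kg libraries as the one with vehicle, so the calls are not independent of each other.

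After 7 days at 50 mg/kg no member passed (0 of 53), beside 2.78% of all genes, 0.763% higher and 2.02% lower. The share over all genes was 1.32%, 1.36% and 7.47% without vehicle replicate 1, 2 or 4 and 1.14% without 50 mg/kg replicate 3. With TMM factors the split of all calls changed, from 120 higher of 438 to 215 higher of 437. In limma 8 of 53 members had an unadjusted p under 0.05, 4 in each direction. Of all 15736 genes 2820 did, 1021 higher and 1799 lower. The smallest adjusted p values were those of Eif3m, an eIF3 subunit (-0.19 in log2, SE 0.05, limma adjusted p = 0.0579), and of Eif6 (0.22, SE 0.07, limma adjusted p = 0.0821). Eif4ebp1 had 62.7, 55.4, 56.8 and 66.9 TPM with vehicle and 69.6, 66.4, 79.3 and 101 TPM at 50 mg/kg, with overlap (0.37 in log2, SE 0.15, limma adjusted p = 0.190). Eif1 had 308, 299.8, 314 and 320.5 TPM with vehicle and 336, 312, 374 and 386 TPM at 50 mg/kg (0.18, SE 0.08, limma adjusted p = 0.266), and 1 treated library lay within the vehicle range.
Eif2s2 had 127, 108, 139.6 and 109.7 TPM with vehicle and 145, 119.7, 127 and 143 TPM at 50 mg/kg, and Eif3c had 163, 154, 160.3 and 141 TPM with vehicle and 146, 155, 152 and 155 TPM at 50 mg/kg. Both overlapped, at 0.15 and -0.02 in log2. Eif6 had 61.1, 51.4, 60.1 and 61.3 TPM with vehicle and 65.3, 62.2, 69.5 and 77.2 TPM at 50 mg/kg, with no overlap. Eif6 passed without vehicle replicate 4 (limma adjusted p = 0.0485) or without 50 mg/kg replicate 2 (limma adjusted p = 0.0461). Eif3m passed without the same libraries (limma adjusted p = 0.0167 and 0.0352).

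Among the kinases on day 8, Eif2ak1 had 22.9, 24.8, 23.8 and 24.5 TPM with vehicle, 23.1, 24.2, 22.4 and 23.1 TPM at 25 mg/kg and 26.2, 25.1, 27.9 and 27.2 TPM at 50 mg/kg. All libraries at 50 mg/kg were above all others of that day. It did not pass against vehicle (0.14 in log2, SE 0.05, limma adjusted p = 0.151) or against 25 mg/kg (0.19, SE 0.05, limma adjusted p = 0.0714), but the latter did pass with TMM factors (adjusted p = 0.0342), quantile normalization (0.0448) and without the length trend (0.0272). By overlap alone Eif2ak1 and Eif6 were the 2 members higher at 50 mg/kg than with vehicle and none was lower (3.77% and 0%, beside 1.58% and 4.92% of all genes).
Eif2ak2, an interferon-induced gene, had 12.1, 12.6, 12.2 and 18.9 TPM with vehicle and 12.7, 12.1, 12.3 and 24.6 TPM at 50 mg/kg, and replicate 4 of each group stood apart. In these libraries the summed TPM of 12 interferon response genes was also the highest of its group, 254 TPM with vehicle (group median 92.4) and 799 TPM at 50 mg/kg (group median 144). The part of that in the values of Eif2ak2 was not tested. Eif2ak3 had 15.1, 16.7, 15.3 and 20.96 TPM with vehicle and 16.6, 15.5, 18.1 and 18.6 TPM at 50 mg/kg. Eif2ak4 had 9.14, 10.9, 9.10 and 9.64 TPM with vehicle and 9.27, 9.01, 7.99 and 8.99 TPM at 50 mg/kg, and neither of these genes passed.

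Against 25 mg/kg on day 8, 0 of 53 members passed at 50 mg/kg, beside 1.08% of all genes (0.229% higher and 0.852% lower). Of the calls over all genes 36 of 170 were higher, and 95 of 203 with TMM factors. At an unadjusted p under 0.05 in limma there were 5 of 53 members and 2632 of 15736 genes. By overlap alone 1 member, Eif2ak1, was higher and 1, Eif2d, lower (1.89% each, beside 3.82% and 6.04% of all genes). At 25 mg/kg against vehicle on day 8 again no gene passed (0% of all genes), with 2 members and 468 genes at an unadjusted p under 0.05. Eif4ebp1 had 58.3, 54.0, 70.8 and 78.0 TPM there, overlapping vehicle (0.10 in log2). By overlap alone 1 member, Eif2d, was higher and none lower (1.89% and 0%, beside 0.782% and 0.845% of all genes). In the vehicle groups, day 8 against day 4, no gene passed either (0%), with 7 members and 1749 genes at an unadjusted p under 0.05. All 7 of those members were lower on day 8, led by Eif4a3 (-0.19 in log2, limma adjusted p = 0.417). Of the 1749 genes 968 were lower and 781 higher. By overlap alone 2, Eif4h and Eif5, were lower and none higher (3.77% and 0%, beside 2.52% and 1.8% of all genes).

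The difference between the effects of 50 mg/kg on the 2 days was tested by itself. It passed for 4 of 53 members, all with a smaller effect on day 8 (7.55%, beside 1.44% of all genes, 0.35% higher and 1.09% lower). With TMM factors 72 of 158 calls over all genes were higher, beside 55 of 226. The differences, day 8 minus day 4, were -1.43 in log2 for Eif4ebp1 (SE 0.21, limma adjusted p = 0.00106), -0.40 for Eif3c (SE 0.08, limma adjusted p = 0.00855), -0.53 for Eif1 (SE 0.12, limma adjusted p = 0.0247) and -0.55 for Eif2s2 (SE 0.14, limma adjusted p = 0.0487). That of Eif4ebp1 passed in all 27 alternatives. Those of Eif3c and Eif1 were lost in 3 and 5 of 27 (largest limma adjusted p 0.103 and 0.108), and that of Eif2s2 in 20 of 27 (0.193). This difference shares all of its libraries with the comparisons within each day. For Eif4a3, which fell on day 4, and for Eif3g the differences did not pass (0.31 and 0.26, limma adjusted p = 0.105 and 0.163).

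The genes that act on or after eIF2 were read from a list of 18 that are not members, chosen with earlier results of these data known. On day 4 at 50 mg/kg 7 of the 18 were higher and 1 lower, beside 4.95% and 4.31% of all genes. The list median was 0.19 in log2, beside 0.03 over all genes. Asns, asparagine synthetase, had 28.3, 24.4, 22.3 and 27.0 TPM with vehicle and 168, 138, 166 and 193 TPM at 50 mg/kg (2.66, SE 0.16, limma adjusted p = 2.01e-09). Other rises were those of the stress transcription factors Atf5 (2.64) and Ddit3 (1.18), the glutathione-degrading Chac1 (2.56), the pseudokinase Trib3 (2.02), the mTORC1 inhibitor Sesn2 (0.41) and Ppp1r15a, which directs a phosphatase to eIF2α (0.52, SE 0.15, limma adjusted p = 0.0315).
Hspa5, the main chaperone of the endoplasmic reticulum, had 429, 354, 373 and 347 TPM with vehicle and 296, 231, 261 and 257 TPM at 50 mg/kg and fell by 0.52 (SE 0.14, limma adjusted p = 0.0213). Atf4, which is controlled chiefly in its translation, had 198, 197, 192 and 187 TPM with vehicle and 216, 216, 235 and 339 TPM at 50 mg/kg. It did not overlap and did not pass (0.35, SE 0.13, limma adjusted p = 0.104), and neither did Gcn1, the activator of the GCN2 kinase (-0.11, limma adjusted p = 0.383). On day 8 Atf5 (0.98) and Asns (1.04) were higher and the other 16 did not pass, while 2.78% of all genes passed. The effect of 50 mg/kg was smaller on day 8 than on day 4 for 4 of the 18, Trib3 (-1.84, limma adjusted p = 0.0276), Atf5 (-1.66, limma adjusted p = 0.00104), Asns (-1.61, limma adjusted p = 0.000617) and Ddit3 (-1.40, limma adjusted p = 0.00254). For Chac1 the difference was -2.17 and did not pass (limma adjusted p = 0.0599). Over all genes the difference passed for 1.44%.

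Of 20 genes of mTORC1 and eIF4E control, 1 was higher on day 4 at 50 mg/kg and none lower, namely Rheb, the GTPase that activates mTORC1 (0.23, SE 0.06, limma adjusted p = 0.0218). None of the 20 passed on day 8. Of 16 further factors of initiation, reinitiation, ribosome recycling and release, 15 were tested and 1 was lower on each day. Abcf1, an eIF2-binding ATPase, was lower on day 4 (-0.17, SE 0.05, limma adjusted p = 0.0477), and Ddx3x, an RNA helicase, on day 8 (-0.28, SE 0.06, limma adjusted p = 0.0196). None of 9 elongation factor genes passed on either day. These counts are no larger a share than the 9.26% of all genes called on day 4, and for the further factors 1 of 15 on day 8 compares with 2.78%. The lists held median log2 fold changes of 0.03, -0.05 and 0.04 on day 4, in that order.

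Of 8 proliferation genes 6 were lower at 50 mg/kg on day 4, beside 4.31% of all genes. The sum of the 8 was 714 to 897 TPM with vehicle and 483 to 604 TPM at 50 mg/kg. On day 8 none of the 8 passed. Of the 7 markers of mammary epithelium none passed on day 4, with sums of 2602 to 3311 TPM with vehicle and 3291 to 3746 TPM at 50 mg/kg. On day 8 the basal keratin genes Krt5, Krt14 and Krt17 were higher (0.51, 0.84 and 0.94 in log2, limma adjusted p = 0.0288, 0.0103 and 0.0177), with sums of the 7 of 3061 to 3747 TPM with vehicle and 3530 to 5593 TPM at 50 mg/kg. Krt5 and Krt14 were also higher than at 25 mg/kg. The other markers of the 7 did not pass against vehicle on day 8. Over the 7 the median was -0.01 in log2 and the lowest value -0.31. None of the genes tested of the erythroid, macrophage and skeletal muscle lists passed on either day. On day 4 the sum of 6 erythroid genes was 106 to 138 TPM with vehicle and 7.07 to 193 TPM at 50 mg/kg, that of 7 macrophage genes 509 to 1204 and 765 to 1927 TPM, and that of 7 skeletal muscle genes 5.45 to 133 and 6.82 to 512 TPM. Group medians of these sums were 119.5 and 15.8 TPM, 627 and 1178 TPM, and 6.76 and 41.3 TPM, in that order. The 5 erythroid genes tested lay between -2.35 and -0.47 in log2. The macrophage genes lay between 0.46 and 0.93 and the muscle genes between 0.35 and 1.94. No gene of these lists was at 0 in all libraries, and their part in the values of the initiation factors was not tested.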

How the data were processed

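RNA was measured in 24 tumour libraries, in 6 groups of 4 taken from the sample titles. Per the labels' protocols, RNA was column-purified and libraries were strand-specific. The tools named in the submitters' processing notes are RSEM 1.2.31, STAR 2.5.0c, Trimmomatic 0.36 and bcl2fastq, and the build is mm10 (GRCm38). Neither the annotation release nor whether counting used the strand was given in the sources used here. The authors deposited 1 table of TPM values without read counts, so the depth is unknown, and TPM are relative to the library total.

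The 15736 genes that reached 1 TPM in 4 libraries were transformed to log2(TPM + 1). In R 4.3.3, limma 3.58.1 fitted the 6 group means (trended empirical Bayes, 18 residual degrees of freedom). Two-sided p-values were adjusted by Benjamini-Hochberg over all genes kept, with a threshold of 0.05. The log scale understates changes of scarce genes. Gene positions come from GENCODE M21, which held all 53 members, and promoters from RefSeq. Members described by library were the eIF2 kinases, the 4E-BP genes, the eIF2 subunits, Eif4e and every member that passed a comparison. Other members were named with their values in view. The members and lists were chosen with earlier results of these data known. Alternatives were TMM factors, quantile normalization, removal of mitochondrial genes, pseudocounts of 0.1 and 5, no filter, a filter of 5 TPM, library weights, the compared groups alone, the replicate number as a block and leaving out each library. A correction of each library for its trend with transcript length was added after seeing the data. The fit was tested on simulated data.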

Additional observations from a re-analysis of the deposited data

Results flagged for a closer look

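In 10 of 120 groups of 4 libraries tested over the 20 members described by library (8.33%), 1 library stood apart from the other 3 by Dixon's criterion, which chance meets in about 1 of 20 groups. Eif2ak2 was high in replicate 4 of day 8 vehicle (18.9 TPM, others 12.1 to 12.6) and in replicate 4 of day 8 at 50 mg/kg (24.6 TPM, others 12.1 to 12.7). Eif2ak4 was high in replicate 2 of day 4 at 50 mg/kg (12.2 TPM, others 9.70 to 9.96). On day 8 at 25 mg/kg, Eif2s1 was low in replicate 2 (47.6 TPM, others 56.4 to 57.1) and Eif2s3x was high in replicate 4 (191 TPM, others 176 to 178). Eif4ebp3 was high in replicate 2 of day 4 vehicle, at 2.5 TPM beside 1.24 to 1.37.

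Eif5 stood apart in 3 groups, being high in replicate 2 of day 4 vehicle (183 TPM, others 174 to 176), low in replicate 1 of day 4 at 25 mg/kg (179.6 TPM, others 187) and low in replicate 4 of day 8 at 50 mg/kg (152.6 TPM, others 169 to 169.8). Eif6 was low in replicate 2 of day 8 vehicle (51.4 TPM, others 60.1 to 61.3), which bears on its day 8 comparison.

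The effect of 50 mg/kg differed between the days, by the test of the difference (limma, day 8 minus day 4, in log2), for Eif4ebp1 (-1.43), Eif2s2 (-0.55), Eif1 (-0.53) and Eif3c (-0.40).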

How the results depend on the processing

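Over 3184 alternative values of the 20 members described by library in the 8 comparisons, no called value changed sign. The count of members called at 50 mg/kg against vehicle on day 4 was 11. It ranged from 7 to 11 with 1 library left out and was 15 with library weights. Of all genes 4.44% to 8.33% passed with 1 library left out and 20.4% with library weights. On day 8 the count of members was 0, but 11 with library weights (Eif6 at a limma adjusted p of 0.0127) and 1 with the replicate block. It was 0 to 3 with 1 library left out (3 without vehicle replicate 4, 2 without 50 mg/kg replicate 2). Of all genes 18.4% passed on day 8 with library weights and 3.44% with the block. Without those 2 libraries 7.47% and 3.13% did. Between doses on day 4 the count of members was 5, but 8 with library weights and 6 with the replicate block or a filter of 5 TPM. It was 4 to 6 with 1 library left out. The shares of all genes were 8.03% with library weights, 2.24% with the block, 2.71% with the filter and 0.941% to 2.26% with 1 library left out. Between doses on day 8 the count of members was 0, but 1 without the length trend, with TMM factors or with quantile normalization. It was 4 with library weights, where 14.4% of all genes passed. In the other 3 settings 1.22%, 1.29% and 1.46% of all genes did, in that order. For the difference between days the count of members was 4, but 6 with library weights (Eif3a and Eif4b added). It was 1 with TMM factors and in the fit of the compared groups only, and 2 without the length trend. With 1 library left out it was 2 to 4 (2 without day 4 vehicle replicate 3, day 4 50 mg/kg replicate 4 or day 8 50 mg/kg replicate 1). Of all genes 4.73% passed with library weights, 1% with TMM factors, 0.432% in the compared groups only and 0.689% without the length trend. With 1 library left out 0.585% to 3.82% did. The causes of these changes in count were not tested.

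Over all genes, 699 to 1311 genes passed on day 4 and 180 to 1175 on day 8 with 1 library left out, and library weights called 3205 genes at 50 mg/kg on day 4 (1457 without weights) and 2888 on day 8 (438). With the compared groups only, 12 genes passed on day 8.

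Same-numbered libraries did not deviate together throughout. For 50 mg/kg and vehicle the correlations ran from -0.07 to 0.35 on day 4 and from -0.19 to 0.34 on day 8. Of 8 libraries, 5 on day 4 and 3 on day 8 were closest to their own number. The labels state no pairing by number, and the origin of these correlations was not tested. With the number as a block, 12 members were called on day 4 (Eif2b2 added, limma adjusted p = 0.0343) and 1 on day 8 (Eif6, limma adjusted p = 0.0401). Between doses on day 4 it was 6 (Eif2b3 added, limma adjusted p = 0.0398). The block called 9.9%, 3.44% and 2.24% of all genes in these comparisons, in that order. The absence of read depth limits what can be said of scarce members such as Eif4ebp3, Eif5a2 and Eif4e3.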
